A study of Drosophila melanogaster with 29 samples.

Results

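Cells depleted of dRING were compared with cells depleted of PH, 2 subunits of the same Polycomb complex. The comparison rests on 6 of the series' 29 arrays, the 3 labelled as dRING knockdown and the 3 labelled as PH knockdown. It covers 11677 genes, those that a non-control probe set naming a single gene could measure above the lowest deposited value on at least 1 array. All arrays measured total RNA of Drosophila S2 cells, a line that carries features of embryonic blood cells. The dRING and PH cells had been given double-stranded RNA against the named protein for 4 days, and 14 arrays of S2 cells without such treatment (Mock) are given beside them. The labels call the arrays biological replicates and name no separate cultures, so the p-values capture variation among these arrays alone, which may be technical. In a bulk culture, fewer cells of a type and less RNA per cell cannot be told apart.

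Polycomb repressive complex 1 (PRC1) holds developmental genes silent. Its dRING subunit, encoded by Sce, is the RING-finger enzyme that attaches ubiquitin to histone H2A, with PSC as its RING partner. PH, encoded by the neighbouring genes ph-p and ph-d, carries a SAM domain through which complexes join together, and PC binds methylated histone H3. The dRING protein also works outside PRC1, in an assembly with dKDM2 and PSC that lacks PH and PC.

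Levels below are log2 signals after quantile normalisation, with the lowest possible value at 2.27. Differences are log2 fold changes of dRING over PH from a limma model of all 6 groups in the series, with their standard error (SE) and with p-values adjusted over all genes tested. The model pools the spread of all 6 groups. Where Mock arrays sit at the floor, the SE can understate the spread of the dRING and PH arrays. A gene is called at an adjusted p under 0.05, and "rose" and "fell" describe called genes in dRING cells relative to PH cells.

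The control RNAs on the arrays separated the groups before any gene was considered. The poly-A spikes, bacterial transcripts added to the sample RNA, averaged 4.48 ± 0.61 in dRING, 9.37 ± 0.26 in PH and 4.93 ± 1.01 in Mock (deposited log2 signal, SD, n = 3, 3 and 14). Hybridization controls averaged 10.22 ± 1.04 in dRING, 12.68 ± 0.38 in PH and 10.52 ± 0.62 in Mock. For both controls the dRING and PH arrays did not overlap, and the exact two-sided permutation p was 0.1, the smallest that 3 against 3 arrays allow. Arrays of dKDM2 depletion had poly-A levels of 7.15 to 9.18, while those of PC and PSC depletion had 3.88 to 5.04. The upper quartile of the deposited signal was 6.90 ± 0.20 in dRING, 5.88 ± 0.38 in PH and 6.87 ± 0.23 in Mock. The arrays numbered 3 stood apart in every group, with actin 5' minus 3' differences of -4.60 to -3.27 on 6 arrays, against -2.98 to -0.51 on the other 23. dRING arrays 1 and 2 correlated at 0.999 with each other and at 0.980 and 0.982 with array 3, and the PH arrays at 0.972 to 0.981. Poly-A levels ran from 4.09 to 5.18 on dRING arrays and from 9.09 to 9.61 on PH arrays. A fit with this level as a covariate therefore cannot separate the spike level from the depletion, whether a call is lost or kept. The part of these array differences in the gene results below was not tested beyond the fits named beside them.

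**Figure D1:**
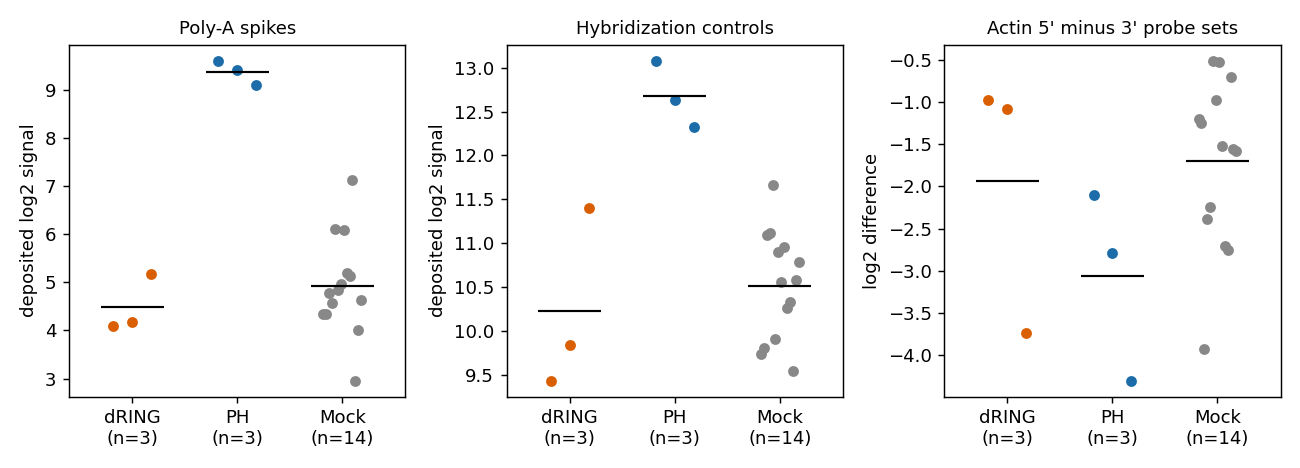
Control probe sets on each array, as deposited log2 signal (poly-A spikes and hybridization controls) or as the log2 difference between 5' and 3' actin probe sets; each point is 1 array and the line is the group mean. PH arrays lie above all dRING and Mock arrays for both kinds of spike, and array 3 of dRING and of PH has the lowest actin difference of its group.

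Of the S2 line's blood cell markers, 10 of 21 had a mean above 5 in dRING cells, 9 in PH cells and 10 in Mock cells. Their mean level was 5.88 to 6.19 on the dRING arrays and 5.53 to 5.96 on the PH arrays. Muscle markers were near the floor, with none of 7 above 5 in any of these groups. Of 11 neuron markers, 2 exceeded 5 in dRING, in PH and in Mock cells, and glia markers averaged 6.08 to 6.36 on dRING arrays and 7.02 to 7.22 on PH arrays.

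The transcripts of the targeted complex checked the labels. Sce, the dRING gene, read 4.12, 4.15 and 2.62 on the dRING arrays and 5.18, 5.87 and 5.08 on the PH arrays, against 7.48, 7.95 and 8.82 as the lowest, median and highest of Mock. The 3 dRING arrays were the lowest of all these, and the PH arrays also lay below every Mock array. Sce fell by 1.75 (SE 0.51, adjusted p = 0.0181). That call was lost without dRING array 3 (-1.24, adjusted p = 0.121) and without PH array 2 (-1.50, adjusted p = 0.0772). It was also lost on the deposited scale (-0.90, adjusted p = 0.254), with the poly-A covariate (-3.08, adjusted p = 0.0515) and in the fit of the 6 dRING and PH arrays alone (adjusted p = 0.132). Without the Mock arrays the adjusted p was 0.0832, with a replicate block 0.0656 and on the same arrays unblocked 0.0502. The transcripts targeted in PH cells (ph-p, ph-d) were not analysed here, and their depletion was therefore not checked.

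Among other subunit and partner genes, Polycomb transcripts were mostly lower in dRING cells than in PH cells. Psc, the RING partner of dRING, had 9.54, 9.21 and 9.20 in dRING cells and 11.17, 11.15 and 11.36 in PH cells, with Mock at 5.83, 6.70 and 7.98. Both depletions lay above all Mock arrays, and PH lay above dRING without overlap (-1.91, SE 0.40, adjusted p = 0.00147). Pc had 6.41, 6.16 and 8.04 in dRING cells and 7.22, 7.27 and 8.16 in PH cells, overlapping groups that were not called (-0.68, SE 0.53, adjusted p = 0.453). Of the 9 PRC1 and associated genes tested, 5 fell and 0 rose, beside 8.16% of all genes that fell and 8.46% that rose (6 and 1 by limma at an unadjusted p under 0.05). The median difference was -0.99, beside 0 over all genes tested. These counts and the median include Sce, the transcript targeted in dRING cells. Of the 5 that fell, only Psc kept its call on the deposited scale, with median centring and without each array in turn. A further planned member, calypso, was measured under the symbol caly but not matched, and is outside these counts. It also fell (-1.73, SE 0.27, adjusted p = 7.81e-05) and kept its call under the same settings.

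Among the 5 counted genes that fell, the remaining 3 were phol, Asx and l(3)73Ah. phol is a DNA-binding protein that recruits Polycomb complexes, and Asx is a subunit of the H2A deubiquitinase. phol read 7.36, 7.45 and 6.98 in dRING cells and 8.73, 8.54 and 8.46 in PH cells (-1.31, adjusted p = 0.00467). Asx read 7.52, 7.37 and 8.06 in dRING cells and 8.33, 8.76 and 8.84 in PH cells (-0.99, adjusted p = 0.00369), and l(3)73Ah differed by -1.14 (adjusted p = 0.00517). None of these 3 overlapped between the groups. Scm (-0.65, adjusted p = 0.084), Sfmbt (-0.38) and sxc (0.81, adjusted p = 0.102), the enzyme that adds O-linked N-acetylglucosamine, were not called. On the deposited scale without further normalisation 1 member was called lower, and with the poly-A level of each array as a covariate 0 were, with 3 at an unadjusted p under 0.05 in limma.

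**Figure D2:**
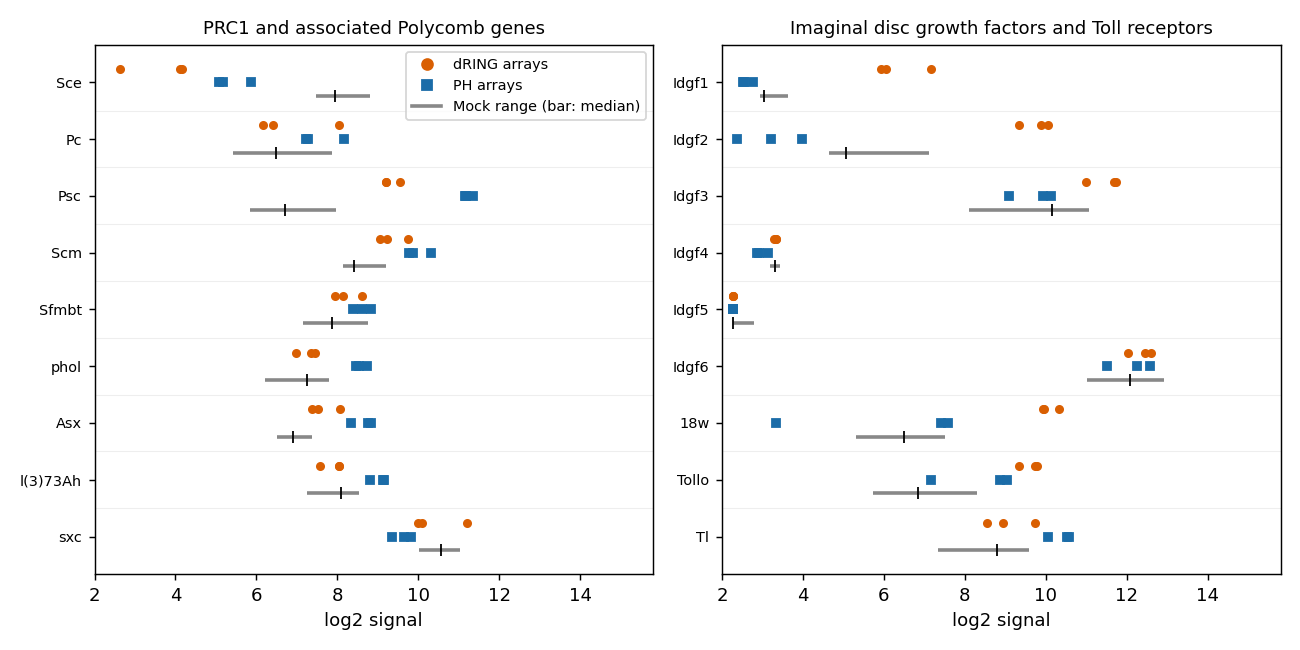
Levels (log2 signal, quantile normalised) of PRC1 and associated Polycomb genes (left) and of imaginal disc growth factors and Toll receptors (right). Circles are dRING arrays, squares PH arrays, and the grey line is the Mock range with its median; Sce lies below and Psc above the Mock range in both depletions, and Idgf1, Idgf2 and 18w are higher on all dRING arrays than on any PH or Mock array.

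Genes of the other Polycomb complex and of the opposing Trithorax group moved in both directions. Of 9 PRC2 genes, 2 rose and 2 fell, and of 20 Trithorax genes 4 rose and 4 fell, beside 8.46% and 8.16% of all genes. The PRC2 genes had a median difference of -0.0054. The histone-binding WD40 subunit that PRC2 shares with other chromatin complexes had 11.35, 11.38 and 9.68 in dRING cells and 8.39, 8.02 and 8.11 in PH cells (2.63, SE 0.58, adjusted p = 0.0025). E(z), the H3K27 methyltransferase, was called at 0.99 (adjusted p = 0.0411), while corto (-1.86, adjusted p = 0.0363) and Jarid2 (-0.91, adjusted p = 0.0496) fell. These last 3 calls were lost in 5, 5 and 6 of the 6 fits that leave out 1 array, with adjusted p up to 0.132, 0.148 and 0.175.

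Among the Trithorax genes, Utx, the H3K27 demethylase, read 6.92, 6.78 and 7.71 in dRING cells, 2.63, 2.54 and 5.29 in PH cells, and 5.11, 7.32 and 9.23 in Mock. All dRING arrays were above all PH arrays and within the Mock range (3.65, SE 0.76, adjusted p = 0.00149). Trl, which encodes the GAGA factor, read 7.27, 6.96 and 7.41 in dRING cells and 5.83, 6.08 and 6.19 in PH cells (1.18, SE 0.21, adjusted p = 0.000406). ash2 (1.07) and Snr1 (1.02) rose, and trr (-1.12), trx (-1.05), Rbbp5 (-0.93) and polybromo (-0.92) fell. Each of these 6 lost its call in 1 to 5 of the fits without 1 array, where adjusted p reached 0.0864 for ash2, 0.191 for Snr1, 0.225 for trr, 0.236 for trx, 0.0773 for Rbbp5 and 0.116 for polybromo. Rbbp5 turned to 0.071 on the deposited scale.

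Over all genes, 1941 (16.6%) were called, 988 of them higher after dRING depletion (8.46%) and 953 lower (8.16%). The dRING and PH arrays did not overlap for 2062 genes with dRING higher (17.7%) and for 1610 with dRING lower (13.8%). The split between directions depended on the scaling, with 1747 higher and 848 lower on the deposited scale. With medians centred on genes above the floor, 775 were higher and 7358 lower, a scaling that by construction also shifts values at the floor and moves the median of all genes by -1.01. A set of 739 calls (6.33%), 417 higher (3.57%) and 322 lower (2.76%), held under both of these scalings and without each of the 6 arrays, with arrays that did not overlap. With poly-A level as a covariate, which cannot be separated from the PH group, 323 genes were called, 158 of them among the 739.

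For most called genes the Mock level was closer to dRING than to PH. Mock was nearer the dRING mean for 878 of the 988 genes that rose (88.9%) and for 910 of the 953 that fell (95.5%). Against the same Mock arrays, dRING cells had 237 genes higher (2.03%) and 87 lower (0.745%), and PH cells had 2306 higher (19.7%) and 1794 lower (15.4%). Arrays of dKDM2 depletion, which share the raised poly-A level, had a mean nearer PH than dRING for 815 of the 988 (82.5%) and for 674 of the 953 (70.7%).

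**Figure D3:**
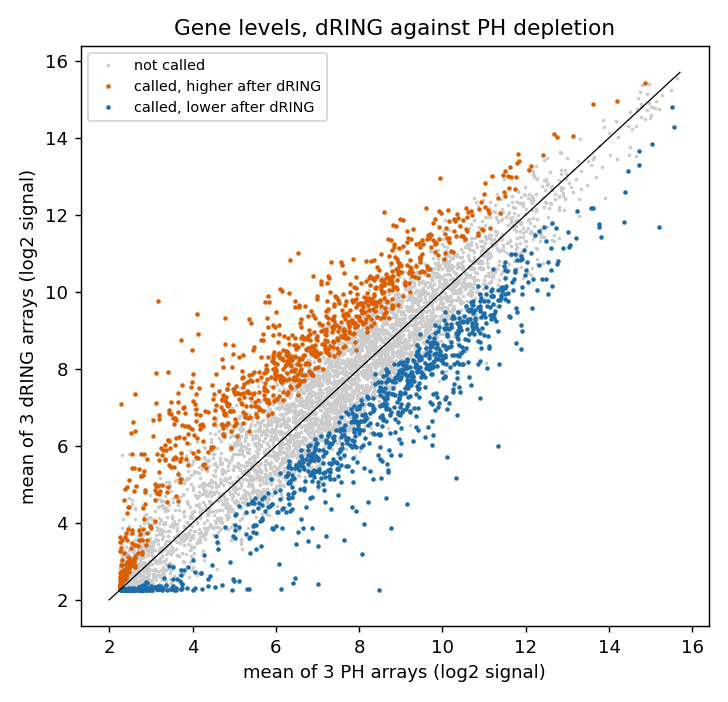
Mean level of each of 11677 genes on the 3 dRING arrays (y axis) against the 3 PH arrays (x axis), both in log2 signal, with the line of equality. Orange points are the 988 genes called higher and blue points the 953 called lower after dRING depletion; the row of blue points along the bottom holds genes at the floor in dRING cells.

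The 28 largest differences that held under these checks, 14 each way, ranged from 16.0-fold to 95.4-fold higher in dRING cells and from at least 14.3-fold to at least 74.2-fold lower. Both of these lower limits belong to genes with dRING arrays at the floor, disco on 2 of 3 arrays and rib on all 3. All 28 were called in PH against Mock, and 2 were called in dRING against Mock, Idgf2 and noc. With poly-A as a covariate, 6 of the 14 higher and 7 of the 14 lower remained called. The dKDM2 mean was nearer PH for 8 of the 14 higher and for 3 of the 14 lower.

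The largest rise was Idgf2, a secreted chitinase-like growth factor. It read 9.89, 10.05 and 9.34 in dRING cells, 2.37, 3.98 and 3.20 in PH cells, and 4.65, 5.06 and 7.12 in Mock. All dRING arrays were above, and all PH arrays below, every Mock array, and the difference was 6.58 (SE 0.63, adjusted p = 8.35e-08). Ama, a secreted immunoglobulin-domain adhesion protein, had 8.78, 8.92 and 10.57 in dRING cells against 3.61, 3.43 and 5.30 in PH cells (5.31, SE 1.39, adjusted p = 0.00893). Its Mock arrays ranged from 5.02 to 10.91 and so covered the dRING arrays.

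Several of the other large rises encode nuclear or metabolic proteins. rept, an ATPase of chromatin remodelling complexes, had 9.25, 9.34 and 7.66 in dRING cells and 2.98, 4.59 and 3.63 in PH cells (5.02, SE 0.65, adjusted p = 8.22e-06). M1BP, a zinc finger protein that binds promoters, had 8.48, 8.48 and 6.73 in dRING cells and 2.56, 3.17 and 3.64 in PH cells (4.77, adjusted p = 6.19e-05). AMPdeam, which deaminates AMP, had 9.20, 9.31 and 8.20 in dRING cells and 3.84, 3.34 and 5.22 in PH cells (4.77, adjusted p = 4.68e-05). In each of these 3 genes, array 3 was the lowest dRING value and still above every PH value.

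Marc read 7.05, 7.27 and 7.72 in dRING cells and 2.32, 2.34 and 3.21 in PH cells, with Mock at 7.24, 7.91 and 8.93 (4.72, SE 0.44, adjusted p = 7.18e-08). Agpat2, an acyltransferase of phospholipid synthesis, read 9.49, 9.61 and 8.85 in dRING cells and 4.92, 6.16 and 3.27 in PH cells (4.54, adjusted p = 0.00104). HisT read 6.49, 6.41 and 6.95 in dRING cells and 2.52, 2.50 and 2.71 in PH cells (4.04, adjusted p = 7.35e-07). These 3 kept their call with the poly-A covariate, as did CG7137 (4.52) and CG7655 (4.51). CG7878 (4.10) did not.

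The largest fall was rib, a BTB-domain transcription factor needed for tracheal and salivary gland shape. It was at the floor of 2.27 on all 3 dRING arrays and at 8.19, 8.47 and 8.78 on the PH arrays, while Mock ranged from 2.27 to 2.34. Every PH array was far above every dRING and Mock array, and rib was at least 74.2-fold lower in dRING cells (adjusted p = 5.45e-27). noc, a zinc finger protein of appendage and ocellar development, read 2.31, 2.83 and 4.42 in dRING cells and 7.94, 7.65 and 8.63 in PH cells, with all Mock arrays at 2.27 (-4.89, SE 0.30, adjusted p = 3.55e-11). disco, a zinc finger protein of neural and head development, read 2.27, 2.27 and 2.29 in dRING cells and 7.12, 4.60 and 6.61 in PH cells, with Mock at 2.27, 2.27 and 3.04 (adjusted p = 2.74e-07). Its difference of -3.84 is a limit set by the floor. For all 3 genes the dRING and PH arrays did not overlap and the call stood with the poly-A covariate. Mock arrays of these genes lay mostly at or near the floor. The pooled spread behind their p-values is therefore partly set by the floor.

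Genes of exocytosis and signalling were also among the largest falls. Cadps, a factor of dense-core vesicle release, had 4.82, 4.84 and 5.83 in dRING cells and 10.30, 10.65 and 10.03 in PH cells (-5.17, SE 0.57, adjusted p = 9.62e-07). Mob2, a partner of NDR-family kinases, had 3.81, 3.53 and 4.24 in dRING cells and 8.04, 9.04 and 9.23 in PH cells (-4.91, SE 0.41, adjusted p = 1.07e-08). Ac13E, an adenylyl cyclase, had 2.48, 2.50 and 2.37 in dRING cells and 6.88, 5.96 and 6.37 in PH cells (-3.95, adjusted p = 4.7e-11). All dRING values of these 3 genes lay inside the Mock range, which ran from 4.44 to 7.00 for Cadps, from 3.36 to 5.09 for Mob2 and from 2.32 to 2.65 for Ac13E.

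The remaining large falls were CG9733 (-5.34), CG3505 (-4.65), l(2)41Ab (-4.61), scaf6 (-4.39), CG42268 (-4.12), CG1648 (-4.07), CG18622 (-4.01) and CG8066 (-3.90). CG9733 had 5.61, 5.86 and 6.52 in dRING cells and 11.31, 11.41 and 11.29 in PH cells, beside a wide Mock range of 3.46 to 9.07. CG8066 had 2.39, 2.27 and 3.04 in dRING cells and 5.61, 6.50 and 7.27 in PH cells, with Mock between 2.27 and 2.28.

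**Figure D4:**
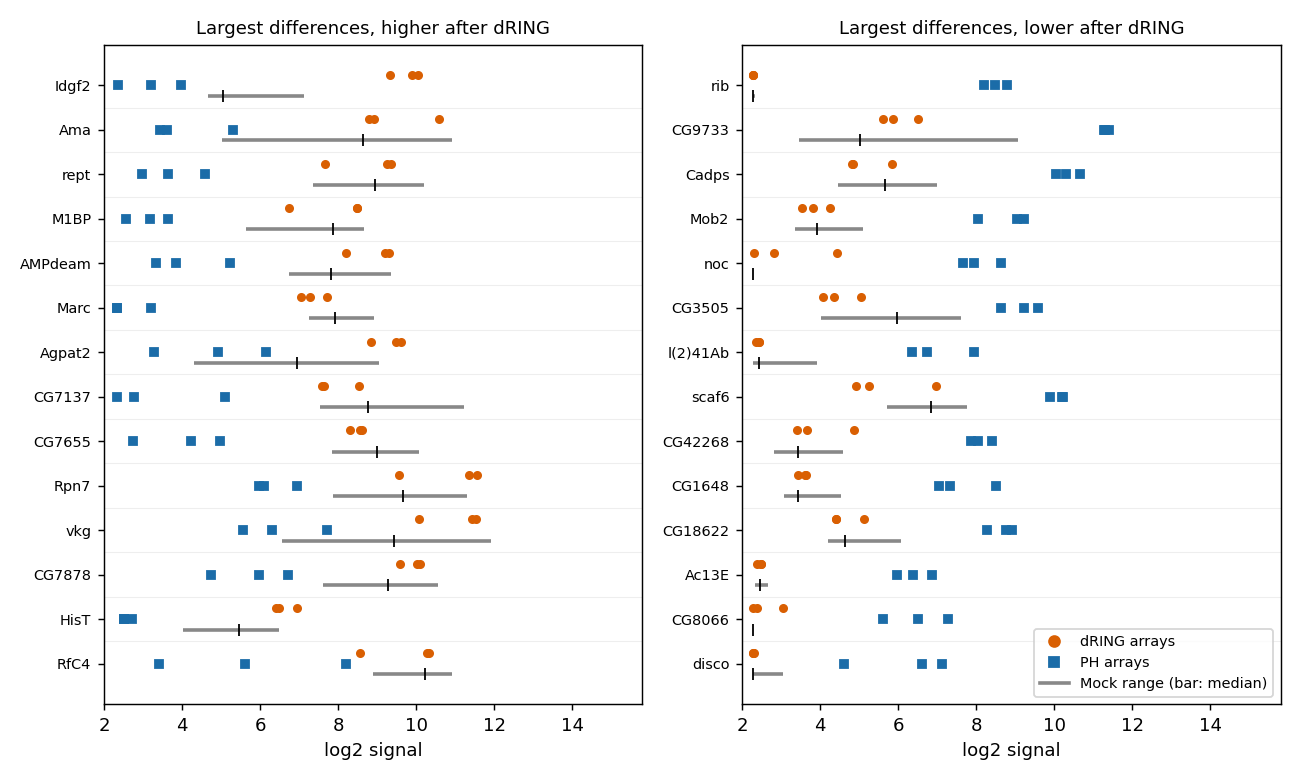
Levels (log2 signal) of the 14 genes with the largest rise (left) and the 14 with the largest fall (right) in dRING over PH cells among calls that held under the scalings and with each array left out. Circles are dRING arrays, squares PH arrays, and the grey line is the Mock range with its median; apart from Idgf2, Agpat2 and noc, most dRING points lie within or near the Mock range, and most PH points lie outside it.

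A few further developmental regulators were higher in PH cells, though most homeobox genes were not called. Of 50 Hox and homeobox genes tested, 1 rose, 3 fell and 46 were not called, beside 8.46% of all genes that rose and 8.16% that fell. Calls were thus no more frequent in this list than among all genes. The gene that rose, caup, was near the floor in both groups, and its direction turned with median centring. ct, a homeobox factor of sensory organs and blood cells, read 8.77, 8.46 and 8.77 in dRING cells and 11.57, 11.77 and 11.96 in PH cells (-3.10, SE 0.78, adjusted p = 0.00672). oc, a head gap gene, was at the floor on all 3 dRING arrays and at 2.79, 5.27 and 6.76 on the PH arrays, at least 6.37-fold lower in dRING cells (adjusted p = 0.000318). Its log2 difference of -2.67 was -3.75 without PH array 1 and -1.76 without PH array 3, and its call was lost in the fit of 6 arrays (adjusted p = 0.205) and with the poly-A covariate (adjusted p = 0.0593). elav, a neuronal RNA-binding protein, read 5.97, 5.67 and 6.57 in dRING cells and 9.41, 8.94 and 8.68 in PH cells (-2.94, adjusted p = 8.22e-06), while the other 10 neuron markers were not called. peb, a zinc finger protein of crystal cells and epithelia, read 2.43, 2.45 and 2.30 in dRING cells and 5.06, 4.69 and 4.39 in PH cells, with Mock at 2.27 to 2.29 (-2.32, adjusted p = 6.71e-12).

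Secreted growth factors and a Toll-family receptor rose beyond Mock in dRING cells. Of the 6 imaginal disc growth factors, 3 rose and 0 fell by limma, beside 8.46% and 8.16% of all genes. The counts were the same at an unadjusted p under 0.05, and the median difference was 1.05. Idgf1 read 5.93, 6.06 and 7.17 in dRING cells, 2.53, 2.55 and 2.76 in PH cells, and 2.95, 3.04 and 3.64 in Mock (3.77, SE 0.24, adjusted p = 6.69e-11). Idgf3 read 11.67, 11.74 and 10.99 in dRING cells and 9.94, 10.14 and 9.10 in PH cells (1.75, adjusted p = 0.0362), a call lost in 4 of the 6 fits without 1 array, with adjusted p up to 0.12. Idgf4, Idgf5 and Idgf6 were not called.

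18w, a Toll-family receptor of cell migration and eggshell formation, had 10.32, 9.96 and 9.94 in dRING cells, 7.58, 7.41 and 3.33 in PH cells, and 5.32, 6.50 and 7.52 in Mock. All dRING arrays were above all PH and Mock arrays (3.97, SE 0.71, adjusted p = 0.000361). It was the only called member of 12 Toll receptors and ligands, beside 16.6% of all genes called and 8.46% that rose. Tollo had 9.74, 9.34 and 9.78 in dRING cells and 9.04, 8.88 and 7.16 in PH cells, with Mock at 5.74, 6.84 and 8.30. It was not called between the depletions (1.26, SE 0.56, adjusted p = 0.123). Tl, the founding receptor of the family, differed by -1.31 and was not called either (adjusted p = 0.0749).

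The proteasome, the protease that degrades ubiquitin-tagged proteins, held the highest median difference of the gene groups examined. Of 37 subunit genes, 20 rose and 1 fell, beside 8.46% and 8.16% of all genes. The median difference was 1.79, with dRING at 0.12 and PH at -1.47 relative to the Mock arrays that both share. Rpn7, a subunit of the regulatory lid, had 11.36, 11.56 and 9.56 in dRING cells and 6.11, 5.96 and 6.93 in PH cells, with Mock at 7.86, 9.67 and 11.31 (4.49, SE 0.79, adjusted p = 0.000335). Rpn3, also of the lid, had 11.18, 11.36 and 9.76 in dRING cells and 7.40, 7.22 and 7.35 in PH cells (3.44, adjusted p = 0.000768). Rpt4, an ATPase of the base, had 10.89, 11.06 and 10.13 in dRING cells and 6.81, 7.08 and 8.85 in PH cells (3.11, adjusted p = 0.0013).

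In each of these 3 subunits dRING array 3 was below arrays 1 and 2, and no PH array reached a dRING array. For the 20 that rose, the median level was 11.16 in dRING cells, 8.90 in PH cells and 11.14 in Mock. It was 8.76 on the dKDM2 arrays, which were nearer PH for all 20. With the poly-A covariate 5 subunits were called higher, and Rpn3 and Rpt4 turned to -0.12 and -0.32. In a fit of the 6 dRING and PH arrays alone, 13 subunits were called higher.

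DNA replication genes differed in the same direction. Of 33 tested, 17 rose and 1 fell, beside 8.46% and 8.16% of all genes, with a median difference of 1.16. RfC4, of the clamp loader, had 10.34, 10.29 and 8.57 in dRING cells and 5.61, 3.40 and 8.19 in PH cells, with Mock at 8.90, 10.21 and 10.92 (4.00, SE 0.83, adjusted p = 0.00147). Mcm5, of the replicative helicase, had 9.39, 9.47 and 8.69 in dRING cells and 3.45, 5.71 and 7.08 in PH cells (3.77, SE 0.59, adjusted p = 9.49e-05). Prim1, of primase, had 7.09, 7.36 and 6.14 in dRING cells and 2.77, 2.90 and 4.65 in PH cells (3.43, adjusted p = 0.000279). Orc4, of the origin recognition complex, had 6.61, 6.83 and 7.05 in dRING cells and 2.33, 2.83 and 5.26 in PH cells (3.36, adjusted p = 0.000482). PH array 3 was the highest PH array in all 4 genes and the nearest to dRING.

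Of 16 cell cycle regulators, 3 rose and 1 fell, beside 8.46% and 8.16% of all genes. aurB, a mitotic kinase, had 8.53, 8.74 and 8.56 in dRING cells and 3.64, 4.81 and 6.47 in PH cells (3.64, SE 0.58, adjusted p = 0.000116). E2f2, a repressive E2F factor, had 8.41, 8.20 and 8.06 in dRING cells and 6.33, 5.91 and 6.26 in PH cells (2.06, SE 0.22, adjusted p = 7.18e-07). CycB, a mitotic cyclin, differed by 0.96 (adjusted p = 1.7e-05), and fzr, an activator of the anaphase-promoting complex, by -1.09 (adjusted p = 0.00313). With the poly-A covariate 3 replication genes were called higher, and in the fit of 6 arrays 7 were.

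Genes of mitochondrial and cytosolic protein synthesis gave mixed counts, to be read beside the 8.46% of all genes that rose and the 8.16% that fell. Of 69 mitochondrial ribosomal protein genes, 23 rose and 1 fell, with a median difference of 0.97. Relative to the shared Mock arrays, the medians were -0.61 for dRING and -1.47 for PH. mRpL36 had 9.85, 9.98 and 10.24 in dRING cells and 6.59, 4.59 and 7.24 in PH cells, with Mock at 9.93, 10.50 and 11.08 (3.89, SE 0.45, adjusted p = 1.99e-06). mRpL3 had 7.81, 8.03 and 7.56 in dRING cells and 4.84, 4.42 and 6.34 in PH cells (2.60, adjusted p = 9.99e-06). mRpL44, the gene that fell, differed by -1.03 (adjusted p = 0.00611). The count of 23 was 14 without dRING array 1, 12 without dRING array 2, 13 without PH array 1 and 15 without PH array 2. It was 3 with the poly-A covariate and 41 on the deposited scale.

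Of 74 oxidative phosphorylation genes, 16 rose and 2 fell, with a median of 0.33, and 5 of the 41 genes for cytosolic ribosomal proteins rose while 0 fell, with a median of 0.065 and counts of 11 and 2 by limma at an unadjusted p under 0.05. ND-20, of respiratory complex I, had 10.83, 10.94 and 10.33 in dRING cells and 9.07, 8.82 and 9.12 in PH cells (1.70, SE 0.32, adjusted p = 0.000543), and ND-19 differed by 1.78 (adjusted p = 0.00272). Of 28 aminoacyl-tRNA synthetases, which charge tRNAs with amino acids, 9 rose and 1 fell. This list, built from the start of gene symbols, left out alpha-PheRS and beta-PheRS. beta-PheRS rose (3.92, adjusted p = 0.000548), and alpha-PheRS was not called (0.75, adjusted p = 0.352). ArgRS had 9.06, 9.01 and 8.18 in dRING cells and 5.38, 5.15 and 6.43 in PH cells (3.10, SE 0.35, adjusted p = 1.56e-06). AlaRS had 10.87, 11.00 and 11.63 in dRING cells and 8.83, 8.22 and 9.47 in PH cells (2.33, adjusted p = 7.81e-05). TyrRS-m, a mitochondrial enzyme, differed by 2.69 and ArgRS-m, its mitochondrial counterpart for arginine, by -1.43 (adjusted p = 0.000545). Of 35 translation factors, 5 rose and 1 fell, a share near the 16.6% of all genes called, among them eIF2Bbeta (3.03, adjusted p = 0.00119) and eIF2Balpha (2.22, adjusted p = 0.00119), subunits of the exchange factor of initiation.

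**Figure D5:**
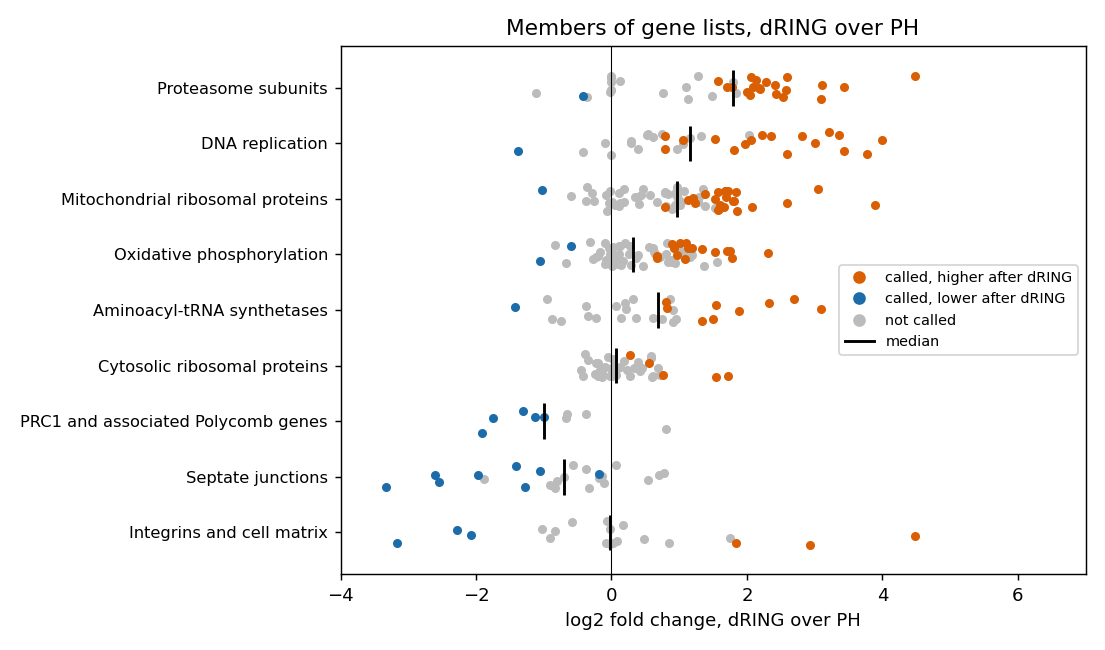
Log2 fold change of dRING over PH for the tested members of 9 gene groups, 1 point per gene, with the group median as a black bar. Orange points are called higher and blue points called lower after dRING depletion; the medians are 1.79 for proteasome subunits, 1.16 for DNA replication, -0.99 for PRC1 and associated genes and -0.69 for septate junctions.

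Adhesion and matrix genes went both ways. Of 20 integrin and matrix genes, 3 rose, 3 fell and 14 were not called, beside 8.46% of all genes that rose and 8.16% that fell. The 3 that rose are secreted matrix proteins and the 3 that fell are integrin subunits, while most of the list was called in neither direction. vkg, a collagen IV chain, read 11.52, 11.43 and 10.07 in dRING cells and 7.71, 6.31 and 5.56 in PH cells, beside a Mock range of 6.57 to 11.91 (4.48, SE 1.08, adjusted p = 0.00502). With the poly-A covariate its difference was -0.065 and it was not called. Col4a1, the other collagen IV chain, differed by 2.93 (adjusted p = 0.0269) but lost its call in 4 of the fits without 1 array, with adjusted p up to 0.0914. SPARC, which binds collagen IV, read 12.96, 12.98 and 13.11 in dRING cells and 10.78, 10.94 and 11.82 in PH cells, both below the Mock range of 13.25 to 14.31 (1.84, SE 0.32, adjusted p = 0.000333).

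Of the integrin subunits, mys read 11.35, 11.44 and 12.23 in dRING cells and 14.09, 13.85 and 13.31 in PH cells (-2.08, SE 0.43, adjusted p = 0.00133). Itgbn read 6.45, 6.66 and 7.73 in dRING cells and 10.01, 10.19 and 10.14 in PH cells (-3.17, adjusted p = 0.00907). scb read 4.91, 4.74 and 5.99 in dRING cells and 7.91, 7.63 and 6.95 in PH cells (-2.28, adjusted p = 0.00386). No dRING array reached a PH array for these 3 subunits.

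Of 23 septate junction genes, 0 rose and 8 fell by limma, beside 8.46% and 8.16% of all genes (0 and 9 at an unadjusted p under 0.05), with a median of -0.69. Nrg, a cell adhesion molecule of these junctions, read 5.43, 5.05 and 5.64 in dRING cells and 8.57, 8.98 and 8.55 in PH cells (-3.33, SE 0.67, adjusted p = 0.00117). nrv2, a sodium pump subunit that is also a glia marker, read 7.13, 6.79 and 7.52 in dRING cells and 9.70, 9.99 and 9.38 in PH cells (-2.54, SE 0.60, adjusted p = 0.00401). The count of 8 was 5 without dRING array 1, dRING array 2, PH array 1 or PH array 2. It was 3 on the deposited scale and 0 with the poly-A covariate, where 2 were lower at an unadjusted p under 0.05.

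Most blood cell markers were not called. Of 21 tested, 4 rose, 2 fell and 15 were not called, beside 8.46% of all genes that rose and 8.16% that fell. Their median difference was 0. The called markers include the collagens and peb given above. eater, a phagocytic receptor of plasmatocytes, read 7.18, 6.92 and 7.70 in dRING cells and 4.21, 6.11 and 4.11 in PH cells, with Mock at 7.06, 7.63 and 9.06 (2.46, SE 0.64, adjusted p = 0.00863). srp, the GATA factor of blood cell development, differed by 1.45 (adjusted p = 0.032), a call lost in all 6 fits without 1 array, with adjusted p up to 0.105. crq, a scavenger receptor for apoptotic cells, differed by -1.86 (adjusted p = 0.0155) and lost its call without dRING array 1 or dRING array 2, with adjusted p up to 0.096. The glia marker Gs2, a glutamine synthetase, differed by -2.26. The defining glia marker repo stood at the floor on all dRING arrays and at 2.31, 2.27 and 2.28 on the PH arrays, and was not called. All 7 glia markers tested had a negative difference, with a median of -0.85 beside 0 over all genes tested. Only 2 of the 7 were called, beside 8.16% of all genes that fell. Another 2, repo included, were at the floor on all dRING arrays, so their difference could not be positive. The part of these markers in the septate junction counts was not tested.

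Signalling pathway genes were called in both directions, beside 8.46% of all genes that rose and 8.16% that fell. Of 10 JAK/STAT genes, 1 rose and 1 fell. Socs44A, of the suppressor of cytokine signalling family, read 7.74, 8.06 and 8.84 in dRING cells and 11.16, 10.91 and 10.60 in PH cells (-2.68, SE 0.35, adjusted p = 9.31e-06), and Stam, a signal-transducing adaptor, read 9.87, 10.08 and 9.74 in dRING cells and 7.45, 7.50 and 7.34 in PH cells (2.47, adjusted p = 0.00261). Of 13 Notch genes, 1 rose and 4 fell. Among them E(spl)mbeta-HLH, a Notch target, differed by -1.63 (adjusted p = 0.000518), the corepressor gro by -1.46 (adjusted p = 0.00202) and the gamma-secretase subunit pen-2 by 1.39 (adjusted p = 0.00241). Of 17 ecdysone response genes, 1 rose and 3 fell, among them br (-1.59, adjusted p = 0.00234), while Hr78, an orphan nuclear receptor, rose (1.44, adjusted p = 0.00397). None of the 5 antimicrobial peptide genes tested was called by limma, and 1 was lower at an unadjusted p under 0.05.

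Direction was related to gene length. Among 5127 genes with a mean level above 5, split into 3 equal classes, the shortest (genomic span of 319 to 1863 bases) had a median difference of 0.47, with 23.1% called higher and 6.37% called lower. The longest class (4178 to 171340 bases) had a median of -0.34, with 8.43% higher and 20.0% lower. The Spearman correlation of length with the difference was -0.28 across these genes, which are not independent replicates. Relative to the shared Mock arrays, the medians of the shortest class were -0.48 for dRING and -0.92 for PH, and those of the longest 0.48 for dRING and 0.81 for PH. By class, 66 of 69 mitochondrial ribosomal protein genes and 21 of 27 proteasome genes lay in the shortest, and 11 of 20 septate junction genes and 12 of 15 integrin and matrix genes in the longest. Length and difference did not always go together. Cytosolic ribosomal protein genes had 27 of 34 in the shortest but a median of 0.065. Trithorax genes had 14 of 20 in the longest but a median of -0.087, and the integrin and matrix genes had a median of -0.018. DNA replication genes had only 14 of 32 in the shortest, with a median of 1.16. These length counts cover members with a mean level above 5, while the list medians cover all members tested. Classes by mean level had medians of -0.11, 0.056 and 0.12, lowest to highest.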

How the data were processed

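The deposited table holds log2 signals, 1 value per probe set and array, that the authors made from Affymetrix arrays; the submitters' processing notes name RMA and GCRMA without version or role. Per the labels, 7 µg of total RNA with integrity numbers above 8 went into one-cycle labelling. The floor of 2.27 was shared by all 29 arrays and held 42.0% of values, so a fall to the floor gives a lower bound; the number of arrays limits precision.

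Of 18769 non-control probe sets, 13647 named 1 gene by the platform annotation, and 13544 of these were matched by gene number to the Release 6 plus ISO1 MT annotation, used for symbols and genomic span. The probe set with the highest mean stood for each of 11982 genes, and 305 genes that never left the floor were removed. Array medians differed by more than 0.1, so arrays were quantile normalised. limma 3.58.1 (R 4.3.3) fitted 6 group means to 29 arrays with an intensity trend; p-values are two-sided and adjusted by Benjamini-Hochberg over 11677 genes. Alternatives covered the scaling, the probe set per gene, a filter on dim genes, the arrays and covariates in the fit and each array left out; the closing section gives their effect. The script was tested on simulated data. Control probe sets were compared with an exact permutation test (SciPy 1.17.1, Python 3.11.15).

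Named genes are the Polycomb targets, the 14 largest calls each way that held under both other scalings and each array left out, members of the PRC1, PRC2, Trithorax, Idgf, Toll and marker lists, and up to 4 called members each way of other lists. The 10 genes called on opposite sides of Mock were chosen after their values were seen. The comparison, the 27 gene lists and 7 marker sets were chosen with earlier results of these data known. Same-numbered dRING and PH arrays deviated together with r = 0.118, 0.0229 and 0.15 over 5490 genes, so the numbers were not taken as pairs. The highest r of all pairings was between the arrays numbered 3. Against arrays 1 and 2 of the other group, these arrays had negative r, from -0.20 to -0.075. The main fit does not model this shared pattern. Neither ph gene, nor promoter motifs, were analysed here.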

Additional observations from a re-analysis of the deposited data

Results flagged for a closer look

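A set of 10 genes was chosen as called against Mock in opposite directions in the 2 depletions. A limma call between dRING and PH was also required of each gene. Both comparisons with Mock share its arrays. Higher in dRING and lower in PH were Idgf2 (difference 6.58), Pcyt2 (2.50), Efa6 (1.73), ras (1.69) and rols (0.82). Lower in dRING and higher in PH were PpV (-3.57), Ptp4E (-3.35), nAChRbeta3 (-3.11), CG4766 (-2.86) and Ctps (-1.83).

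Pcyt2, of phosphatidylethanolamine synthesis, read 4.71, 4.81 and 5.15 in dRING cells, 2.39, 2.35 and 2.44 in PH cells, and 2.51, 2.68 and 2.92 as the lowest, median and highest of Mock. ras, the IMP dehydrogenase of guanine nucleotide synthesis, read 10.45, 10.41 and 10.95 in dRING cells, 8.84, 8.69 and 9.23 in PH cells, and 9.21, 9.89 and 10.42 in Mock. PpV, a protein phosphatase, read 6.96, 6.85 and 6.56 in dRING cells, 10.37, 10.55 and 10.15 in PH cells, and 7.20, 8.76 and 9.54 in Mock. Ptp4E, a receptor tyrosine phosphatase, read 4.65, 5.08 and 5.77 in dRING cells, 8.22, 8.19 and 9.12 in PH cells, and 6.73, 7.17 and 8.17 in Mock. For Pcyt2, PpV and Ptp4E the 3 groups did not overlap, and all 4 genes kept their call with the poly-A covariate, as did Idgf2, nAChRbeta3 and CG4766. Ctps, Efa6 and rols lost it. Probe sets of Ctps disagreed, with 0.51 for their mean in place of -1.83.

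The spike controls lie outside the gene measurement. Poly-A spike probe sets averaged 9.37 in PH against 4.93 in Mock, and hybridization controls averaged 12.68 in PH against 10.52 in Mock, above the highest Mock arrays of 7.12 and 11.66.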

How the results depend on the processing

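Numbers of genes called, 1941 in all with 988 higher and 953 lower after dRING, moved by over 1.5 times under some settings. Median centring gave 8133 in all and 7358 lower, deposited values 1747 higher, the 6 dRING and PH arrays alone 1067 (523 and 544), and the poly-A covariate 323 (164 and 159). A fit with the replicate block gave 3048 (1604 and 1444), against 2418 on the same arrays unblocked; not every array correlated best with its own number, as dRING array 1 deviated most like PH array 2. Without 1 array in turn, totals ranged from 1365 to 2458, higher calls from 727 to 1064 and lower calls from 628 to 1394; the lowest total and lower count came without dRING array 2, the lowest higher count without PH array 2. The called members were 13 and 5 for the proteasome, 7 and 3 for DNA replication, 8 and 3 for mitochondrial ribosomal proteins, 5 and 0 for septate junctions and 3 and 0 for PRC1 in the 6-array and the poly-A fits. Mitochondrial ribosomal proteins had 41 with deposited values, 36 with the replicate block, 14 with dRING arrays 1 and 2 averaged (added after seeing the data) and 12 to 26 without 1 array. Septate junctions had 3 with deposited values, 13 with median centring, 5 with dRING 1 and 2 averaged and 5 to 8 without 1 array; PRC1 had 1 with deposited values. Sce lost its call with deposited values (-0.90), with the poly-A covariate (-3.08), and at -1.75 in the 6-array, no-Mock, replicate block and unblocked fits; without both arrays numbered 3 (added after seeing the data) it was -1.39, and without 1 array -2.01 to -1.24. Direction turned with the poly-A covariate for Rpn3 (-0.12), Rpt4 (-0.32), vkg (-0.065) and srp (-0.13), with deposited values for Rbbp5 (0.071), with median centring for rols (-0.49) and with the mean over probe sets for Ctps (0.51). Apart from the scaling and probe set settings, whose construction changes the values, the cause was not tested. Of 105 named genes, 32 kept direction and call with the poly-A covariate, where 69 were no longer called and 4 turned, and 75 did so in the 6-array fit. Many of them were chosen because their call held with deposited values, median centring and each array left out, so their stability there is by selection. Brightness over the floor limits what low genes can show.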
